A study of Mus musculus with 9 samples.

Results

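Immediate early genes are switched on within minutes by calcium entry after synaptic activity, without new protein synthesis, and they are used as marks of recently active neurons. Most encode transcription factors that bind the promoters and enhancers of a later wave of genes, and Arc acts at the synapse itself. In the hippocampus their induction accompanies memory formation, and their RNA is short-lived, so that its level depends on activity shortly before the tissue was taken. The genes followed here were Fos, Fosb, Junb, Egr1, Egr2, Egr3, Egr4, Arc, Npas4 and Nr4a1. They were chosen by symbol, and all 10 were present among the 24411 genes listed and among the 14867 genes with enough expression to be tested.

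The hippocampi of 9 male C57BL/6J mice, wild type by genotype and 10 weeks of age per the labels, were profiled by RNA-Seq 10 days after gene transfer. CUG300 mice carried AAV9 expressing Egfp with 300 CTG repeats in its 3′-UTR, and CUG10 mice carried the same vector with 10 repeats, both injected into CA1 on either side. CWG-cPIP, a cyclic pyrrole-imidazole polyamide that binds CAG and CTG repeat DNA, was given to 3 CUG300 mice at 83 μg/kg together with the virus, and 3 CUG300 mice and 3 CUG10 mice received vehicle. The model is therefore a short-term one, with repeats on an introduced transgene in adult brain, and every group was injected with virus, so that no mouse without virus was compared. The sources used here do not give the hour of tissue collection or what the mice did beforehand.

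Values are regularized logarithms (rlog) on the log2 scale, 1 per gene and mouse, so that a difference of 1 is a 2-fold change, and shrinkage by this method understates differences of weakly expressed genes. Medians over the tested genes lay between 8.43 and 8.54 in all 9 mice, and the read depth is unknown. The 8 markers of hippocampal excitatory neurons averaged 11.6 to 11.7 in CWG-cPIP–treated CUG300 mice, 10.9 to 11.6 in vehicle-treated CUG300 mice and 11.4 to 11.5 in CUG10 mice, and none was at 0. Markers of neighboring tissue differed between mice. The mean of 5 choroid plexus markers was 6.98 to 7.04 in CWG-cPIP–treated CUG300 mice, 9.07 to 10.5 in vehicle-treated CUG300 mice and 6.91 to 10.1 in CUG10 mice. The mean of 4 striatal markers was 6.42 to 7.01, 6.71 to 8.07 and 7.24 to 9.09 in the same groups, and the part of either in the results below was not tested.

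The sequences in front of these genes are shown as a description, and any relation to the values below was not tested. Promoters of 7 of the 10 were taken from RefSeq (GRCm38.p6, the build of the files), as the 250 bases before each start site, 11 start sites in all. Egr1, Egr3 and Arc were not matched. The half-site of the cAMP response element, TGACG read on either strand, is the sequence bound by CREB, a factor that calcium signaling activates. It was found in front of all 7 genes and of 9 of the 11 start sites (5 of the 11 belong to Egr2, 3 of these with overlapping windows), and in 17.8% of 32851 mouse start sites. The full palindrome TGACGTCA was in front of 0 of the 7 genes and of 1.55% of all start sites. The Fos stretch (chr12:85473740-85473889, plus strand) is the 150 bases up to the start site, with 2 half-sites and a TATAAA element in capitals. TATAAA begins 33 bases before the start, and 7.59% of all start sites hold it.
Fos: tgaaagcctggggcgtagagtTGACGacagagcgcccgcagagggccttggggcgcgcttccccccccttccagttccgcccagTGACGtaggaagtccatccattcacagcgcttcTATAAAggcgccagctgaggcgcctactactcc
The Nr4a1 stretch (chr15:101266596-101266845, plus strand), the 250 bases before a RefSeq start that lies inside the gene as GENCODE annotates it, held 4 half-sites, all on the minus strand and so written CGTCA, the most of any start site of the 7 genes.
Nr4a1: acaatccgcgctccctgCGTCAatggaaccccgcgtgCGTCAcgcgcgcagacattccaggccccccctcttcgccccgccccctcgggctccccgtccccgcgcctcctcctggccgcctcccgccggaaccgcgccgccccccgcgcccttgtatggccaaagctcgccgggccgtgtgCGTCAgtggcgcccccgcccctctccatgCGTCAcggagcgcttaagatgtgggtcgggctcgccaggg
In Npas4 (chr19:4990129-4990158, minus strand) a pair of half-sites lay 5 bases apart on opposite strands, at 179 and 169 bases before the start, in a stretch that overlaps an exon of the GENCODE annotation.
Npas4: ccgttcgaCGTCAcgggaTGACGtcggaag
The CArG box, to which serum response factor binds, was found within these 250 bases only in front of Egr2 among the 7 genes. Sequence further from the starts was not searched, so boxes there would be missed. Egr2 held the box at 4 of its 5 start sites, against 1.47% of all start sites. Its 2 copies lie at chr10:67537484-67537513 and chr10:67537787-67537816 on the plus strand, with the box in capitals.
Egr2 upstream copy: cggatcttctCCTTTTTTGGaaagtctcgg
Egr2 downstream copy: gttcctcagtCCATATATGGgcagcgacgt
A TATATA element stood 28 bases before the start of Npas4 and 29 bases before that of Egr4, and in 5.25% of all start sites. A match of letters is a description of these windows and says nothing about binding.

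**Figure D1:**
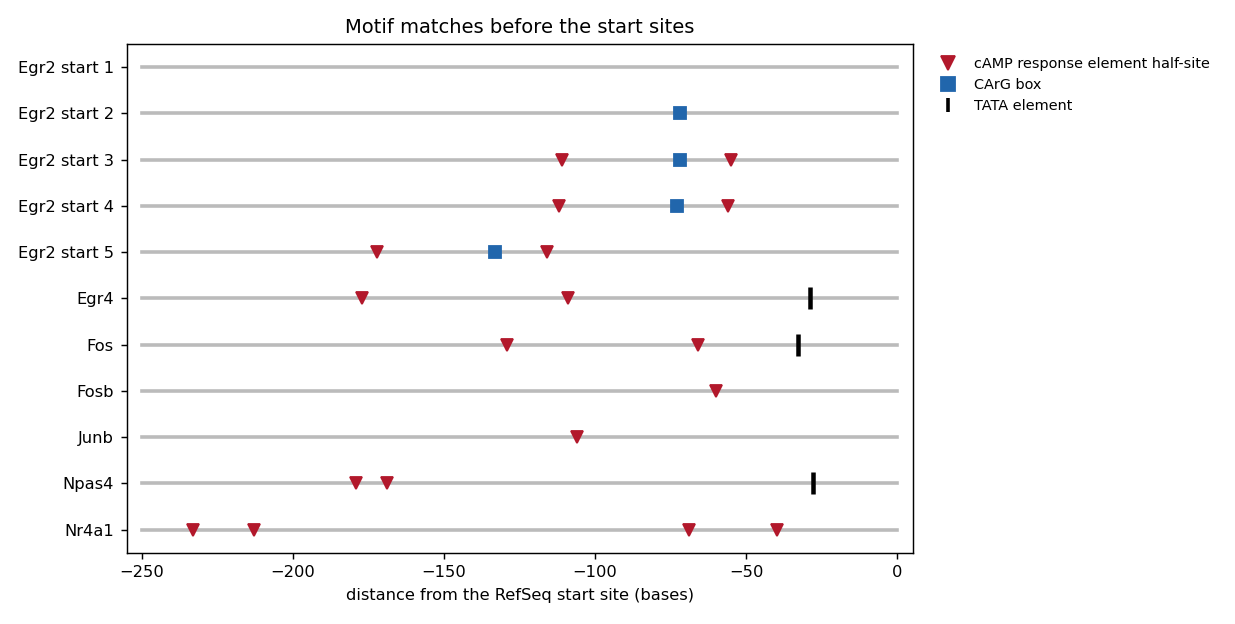
Motif matches in the 250 bases before the 11 RefSeq start sites of the 7 genes with a promoter entry, by distance from the start in bases. Triangles mark cAMP response element half-sites on either strand, squares CArG boxes and bars TATA elements, and half-sites appear in front of all 7 genes while CArG boxes appear only in front of Egr2.

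Levels were first set in order per length, as the group mean minus the log2 of the annotated exon length in kb. Arc stood highest, followed by Egr1, Junb and Egr3, and Fos, Egr2, Fosb and Npas4 filled the lowest places in that order in each of the 3 groups. On this scale Arc was at 9.40 in CWG-cPIP–treated CUG300 mice, 10.4 in vehicle-treated CUG300 mice and 10.5 in CUG10 mice, and Npas4 at 3.96, 4.29 and 5.02. Nr4a1 stood above Egr4 in CUG10 mice, at 8.81 against 8.68, and below it in both CUG300 groups. Neighbors such as Arc and Egr1 in vehicle-treated CUG300 mice, at 10.4 and 10.2, were closer than the SDs of either gene there, 0.92 and 0.76 (n = 3).

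Npas4 was the single gene of the 10 that passed the test when vehicle-treated CUG300 mice were set against CUG10 mice. Npas4 is a neuron-specific basic helix-loop-helix factor that is induced by calcium and regulates inhibitory synapses (chr19:4984355-4990316, minus strand). Its rlog values were 6.34, 6.10 and 6.58 in vehicle-treated CUG300 mice, against 7.20, 7.13 and 6.88 in CUG10 mice. All 3 CUG300 mice lay below all 3 CUG10 mice. Npas4 fell by 0.73 on the log2 scale (SE 0.16, 95% interval −1.10 to −0.37, 0.601 times the CUG10 level, limma adjusted p = 0.0287). In this comparison 3.34% of all tested genes were called lower and 7.37% higher, 10.7% in all, so that 1 called gene in 10 is near the background. In bulk tissue, fewer cells that express a gene and less RNA per cell cannot be told apart. The call depended on single mice. Leaving out CUG10 replicate 1, 2 or 3 gave an adjusted p of 0.0953, 0.0912 or 0.102, and leaving out the third vehicle-treated CUG300 mouse gave 0.0905. It was 0.0568 when CWG-cPIP–treated replicate 1, which enters through the shared variance, was left out. Without any one mouse the difference stayed between −0.85 and −0.61.

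Neuronal markers were measured beside Npas4. Of 5 pan-neuronal markers, Syt1, the calcium sensor of synaptic vesicles, was called lower (−0.51, limma adjusted p = 0.0430) and none higher. Over all tested genes 3.34% were called lower and 7.37% higher. All 5 pan-neuronal means were lower, 4 of them without overlap, where 16.7% of all tested genes were lower without overlap. Their median difference was −0.42 against −0.01 over all tested genes. Of the 8 hippocampal excitatory markers, 2 means were higher and 6 lower, with a median difference of −0.09, and 1 marker was called. This was Fibcd1, a marker of CA1 pyramidal cells, at 9.70 to 10.4 in vehicle-treated CUG300 mice against 10.7 to 10.9 in CUG10 mice. Its difference was the lowest of the 8, −0.80 (limma adjusted p = 0.0241). The part of these in the Npas4 value was not tested.

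Nr4a1 and Arc had the other means below those of CUG10 mice. Nr4a1, an orphan nuclear receptor (chr15:101254269-101274795, plus strand), was at 10.29, 9.75 and 10.62 in vehicle-treated CUG300 mice and at 11.07, 10.42 and 10.37 in CUG10 mice. The groups overlapped, and the difference was −0.40 (SE 0.25, adjusted p = 0.301). It was −0.175 without CUG10 replicate 1 and −0.167 without vehicle-treated CUG300 replicate 2. Arc, a capsid-forming protein of the postsynaptic site that takes part in removing AMPA receptors (chr15:74669083-74672570, minus strand), was at 11.54, 11.34 and 13.03 in vehicle-treated CUG300 mice and at 12.47, 11.92 and 11.92 in CUG10 mice. CUG300 replicates 1 and 2 lay below every CUG10 mouse and replicate 3 above every one. The mean difference of −0.14 (SE 0.40, adjusted p = 0.846) turned positive, to 0.05, 0.08 and 0.18, without CUG10 replicate 1 or CUG300 vehicle replicate 1 or 2, and was −0.67 without CUG300 vehicle replicate 3.

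Egr2 had the highest mean difference in the same comparison. It encodes a zinc finger factor that in the nervous system is also known for hindbrain patterning and myelination by Schwann cells (chr10:67535475-67542188, plus strand). Its values were 9.01, 8.53 and 10.52 in vehicle-treated CUG300 mice and 8.12, 7.58 and 7.62 in CUG10 mice. Every CUG300 mouse lay above every CUG10 mouse, with replicate 3 far above its own group. The difference was 1.58 with a wide interval of 0.14 to 3.03 (2.99-fold, adjusted p = 0.133), and it was 1.00 without CUG300 vehicle replicate 3. Egr2 and Npas4 were the only 2 of the 10 genes whose groups did not overlap, 1 higher and 1 lower, where 18.2% of all tested genes were higher and 16.7% lower without overlap, 34.9% in all.

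The 6 genes not yet described also overlapped between the groups. Egr1, a zinc finger factor needed for lasting plasticity (chr18:34859823-34864984, plus strand), was at 12.14, 11.81 and 13.27 in vehicle-treated CUG300 mice and at 12.22, 11.70 and 11.76 in CUG10 mice. Junb, a JUN family partner of FOS (chr8:84974484-84978718, minus strand), was at 11.30, 10.80 and 11.81 in vehicle-treated CUG300 mice and at 11.07, 10.56 and 10.47 in CUG10 mice. Only replicate 3 of the CUG300 mice exceeded all CUG10 mice for Egr1, whereas replicates 1 and 3 did so for Junb, and the differences were 0.51 and 0.60 (adjusted p = 0.369 and 0.286). Without CUG300 vehicle replicate 3 they were 0.085 and 0.35, and Egr1 differed by 0.81 without replicate 2 of that group. Fos, the inducible subunit of the AP-1 complex (chr12:85473890-85477273, plus strand), was at 9.16, 8.86 and 10.24 in vehicle-treated CUG300 mice and at 9.72, 8.96 and 8.83 in CUG10 mice. For Fos only CUG300 replicate 3 exceeded every CUG10 mouse. Fosb, which also gives rise to the long-lived ΔFosB isoform that gene-level values do not separate (chr7:19302696-19310051, minus strand), was at 7.22, 7.31 and 9.62 in vehicle-treated CUG300 mice and at 8.06, 7.76 and 8.01 in CUG10 mice. For Fosb 2 CUG300 mice lay below all CUG10 mice and 1 lay above all of them. Egr3, a relative of Egr1 that is known to act on the Arc gene (chr14:70077203-70082614, plus strand), was at 10.96, 11.16 and 11.91 in vehicle-treated CUG300 mice and at 11.22, 10.98 and 11.22 in CUG10 mice. Egr4, a close relative of the other EGR factors (chr6:85511121-85513589, minus strand), was at 9.63, 9.28 and 10.83 in vehicle-treated CUG300 mice and at 9.94, 9.70 and 9.70 in CUG10 mice. Again replicate 3 was the only CUG300 mouse above all CUG10 mice for Egr3 and Egr4. Differences of Fos, Fosb, Egr3 and Egr4 were small, from 0.11 for Fosb to 0.25 for Fos, with adjusted p from 0.563 to 0.917. All 4 turned negative without CUG300 vehicle replicate 3, to −0.16 for Fos, −0.68 for Fosb, −0.08 for Egr3 and −0.32 for Egr4. Over the 10 genes 7 means were higher and 3 lower in CUG300 mice, where 48.4% of all tested genes had a higher and 51.6% a lower mean. The median difference was 0.17 over the 10 genes (−0.24 without that mouse) and −0.01 over all tested genes.

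**Figure D2:**
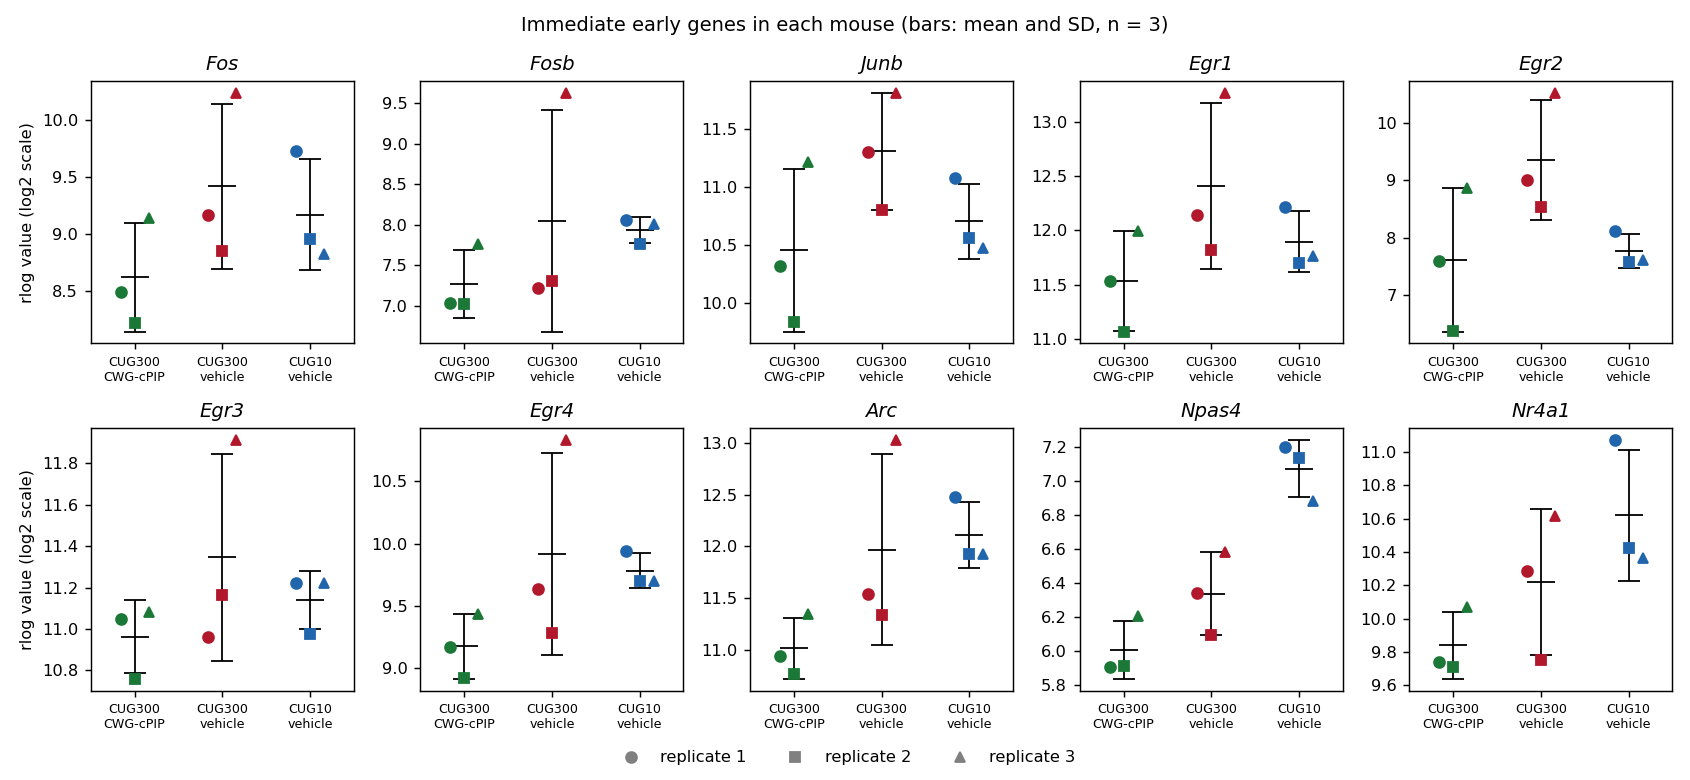
rlog value (log2 scale, separate axis range per gene) of each of the 10 genes in every mouse, with CWG-cPIP–treated CUG300 mice at the left, vehicle-treated CUG300 mice in the middle and CUG10 mice at the right. Marker shapes give the replicate number and bars the mean and SD of 3 mice. Npas4 is lower in all vehicle-treated CUG300 mice than in all CUG10 mice, and vehicle-treated CUG300 replicate 3 is the highest of its group for all 10 genes.

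The spread between mice of a group was large for these genes. The median SD within groups was 0.535 over the 10 genes and 0.183 over all tested genes. It was 0.951 for Egr2, above that of 99.7% of tested genes, and 0.828 for Fosb, above 99.3%. For Npas4 it was 0.196, above 54.9%, close to the middle of all tested genes.

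One mouse stood out in the vehicle-treated CUG300 group. Replicate 3 had the highest value of its group for 10 of 10 genes and the highest of all 9 mice for 8, the exceptions being Npas4 and Nr4a1, which were highest in CUG10 replicate 1. It exceeded the mean of the other 2 mice of its group by 0.36 for Npas4, by 0.60 for Nr4a1, by 1.59 for Arc and by 2.36 for Fosb, 5.13-fold on the linear scale. Its median deviation from the group mean was 0.84 over the 10 genes and 0.01 over all tested genes. The same mouse had the lowest mean of the hippocampal excitatory markers of all 9, 10.9, the lowest pan-neuronal mean, 12.54, and the highest mean of 8 heat shock genes, 11.2, whereas its choroid plexus mean of 9.87 lay within its group. The part of these in its immediate early gene values was not tested.

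Each other group also had 1 mouse that was highest for 10 of 10 genes. It was replicate 3 of the CWG-cPIP–treated CUG300 mice, above the mean of its companions by 0.18 to 1.89, and replicate 1 of the CUG10 mice, by 0.12 to 0.83. CUG10 replicates 1 and 3 were nearly level for Egr3, at 11.2215 and 11.2202, and close for Fosb, at 8.06 and 8.01. CWG-cPIP–treated replicate 2 was the lowest of all 9 mice for 9 genes, and replicate 1 of that group for Npas4. The 10 genes thus tended to be high or low together from mouse to mouse, as the plot of deviations by mouse shows. Between CUG10 replicates 2 and 3 this did not hold, as each was the lowest of its group for 5 genes. Pearson's r of each gene with the mean standardized value of the 10 over the 9 mice was 0.98 for Egr4 and Fos, 0.80 for Nr4a1 and 0.60 for Npas4. These correlations include the gene itself, span the 3 groups and are given without a test. Marker means differed as well. In CWG-cPIP–treated replicate 2 the mean of 8 interferon-stimulated genes was 10.3, against 12.1 and 12.8 in the other treated mice. Its heat shock mean, 10.5, was the lowest of the 9 mice. In CUG10 replicate 1 the choroid plexus mean was 6.91, against 8.79 and 10.1 in replicates 2 and 3. The striatal mean was 7.24 there, against 8.61 and 9.09. The part of these in the immediate early gene values was not tested.

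**Figure D3:**
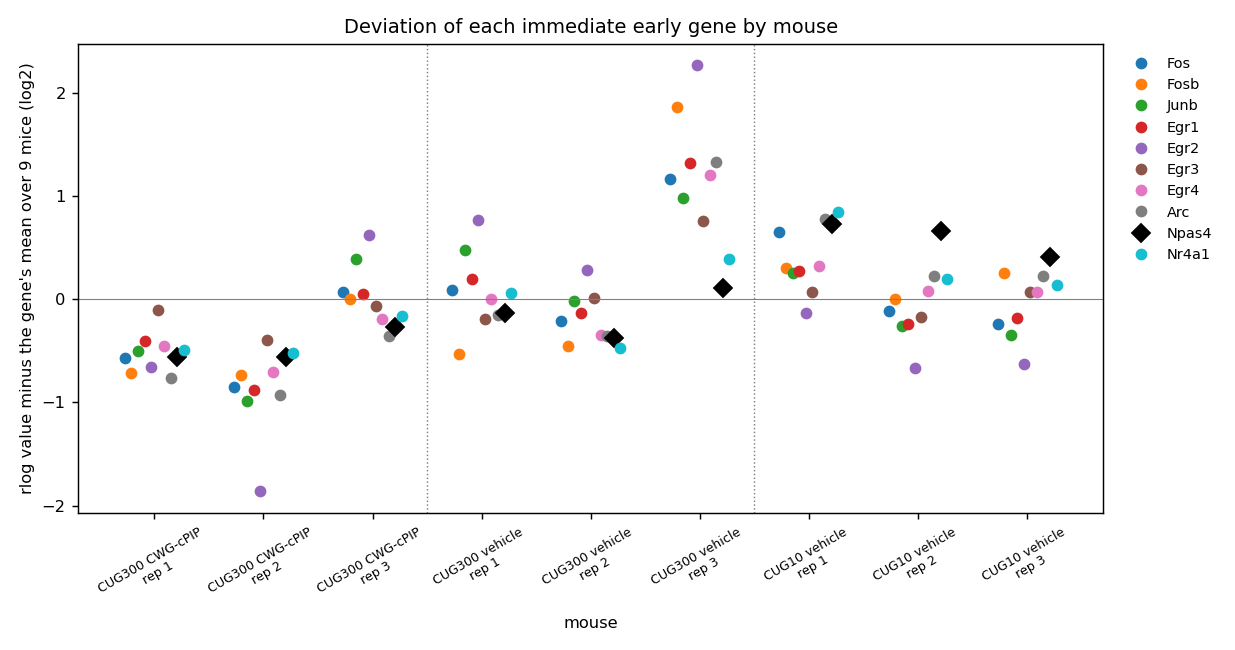
Difference of each gene's rlog value from its mean over the 9 mice (log2), by mouse, with CWG-cPIP–treated CUG300 mice at the left and CUG10 mice at the right. Points are single genes and black diamonds mark Npas4. In vehicle-treated CUG300 replicate 3 all 10 genes lie above their mean, and 8 of them are higher than in any other mouse.

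Whether CWG-cPIP altered these genes in CUG300 mice was asked next. All 10 means were lower in CWG-cPIP–treated than in vehicle-treated CUG300 mice, from −1.74 for Egr2 to −0.33 for Npas4, with a median of −0.79 against −0.003 over all tested genes. A lower mean was found for 50.6% of all tested genes. For 0 of the 10 genes were the groups apart (8.47% of all tested genes), and 0 of 10 passed the test. No tested gene was called at all by limma in this comparison (0%, smallest adjusted p = 0.483), and 1312 genes had an unadjusted p under 0.05, 8.82% in either direction and 3.6% lower. Leaving out treated replicate 3 gave 3 called genes and leaving out CUG10 replicate 3 gave 1, none of them among the 10.

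Of the 10 genes 4, all lower, had an unadjusted p under 0.05 in this comparison: Egr2 (unadjusted p = 0.0235), Arc (0.0402), Egr1 (0.0405) and Junb (0.0427), each with an adjusted p of 0.483. Egr2 was at 7.59, 6.38 and 8.87 in CWG-cPIP–treated mice, against 9.01, 8.53 and 10.52 in vehicle-treated CUG300 mice, and only treated replicate 3 exceeded any vehicle-treated mouse. Arc was at 10.94, 10.77 and 11.34 in CWG-cPIP–treated mice, against 11.54, 11.34 and 13.03 in vehicle-treated CUG300 mice. The highest treated mouse and the lowest vehicle-treated mouse were level for Arc to 2 decimals, and the difference was −0.95 (SE 0.40, 95% interval −1.85 to −0.05). Egr1 was at 11.54, 11.07 and 11.996 in treated mice, against 12.14, 11.81 and 13.27 in vehicle-treated CUG300 mice, a difference of −0.87 (SE 0.37, 95% interval −1.70 to −0.05). Treated replicate 3 lay above 1 vehicle-treated mouse. Junb was at 10.32, 9.84 and 11.21 in treated mice, against 11.30, 10.80 and 11.81 in vehicle-treated CUG300 mice, a difference of −0.85 (SE 0.36, 95% interval −1.66 to −0.03). Single mice carried much of these differences. Without vehicle-treated replicate 3 they were −0.42 for Arc, −0.45 for Egr1 and −1.16 for Egr2, and without treated replicate 2 they were −1.12 for Egr2 and −0.54 for Junb. Leaving out other single mice moved them the other way, as far as −1.27 for Arc, −1.17 for Egr1, −2.37 for Egr2 and −1.23 for Junb.

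The other 6 genes had wider intervals for their size. Fos was at 8.50, 8.22 and 9.14 in CWG-cPIP–treated mice, against 9.16, 8.86 and 10.24 in vehicle-treated CUG300 mice (−0.80, 95% interval −1.67 to 0.08). Fosb was at 7.04, 7.02 and 7.76 in treated mice, against 7.22, 7.31 and 9.62 in vehicle-treated CUG300 mice (−0.78, 95% interval −2.04 to 0.49). Without vehicle-treated replicate 3 the Fosb difference was 0.01, and the difference thus depended on that mouse. It was −1.19 without vehicle-treated replicate 1. Egr4 was at 9.17, 8.91 and 9.44 in treated mice, against 9.63, 9.28 and 10.83 in vehicle-treated CUG300 mice (−0.74, 95% interval −1.51 to 0.03). Egr3 was at 11.05, 10.76 and 11.08 in treated mice, against 10.96, 11.16 and 11.91 in vehicle-treated CUG300 mice (−0.38, 95% interval −0.89 to 0.12). Nr4a1 was at 9.74, 9.71 and 10.07 in treated mice, against 10.29, 9.75 and 10.62 in vehicle-treated CUG300 mice (−0.38, 95% interval −0.94 to 0.18). These 5 genes overlapped through treated replicate 3, and Egr3 also through treated replicate 1. Npas4 was at 5.91, 5.91 and 6.204 in treated mice, against 6.34, 6.10 and 6.58 in vehicle-treated CUG300 mice (−0.33, 95% interval −0.69 to 0.03, adjusted p = 0.483), and its mean was thus not higher with CWG-cPIP. Without vehicle-treated replicate 3 the differences of Fos, Egr4, Egr3, Nr4a1 and Npas4 were −0.39, −0.28, −0.10, −0.18 and −0.21 in that order. Egr3 was at −0.58 without vehicle-treated replicate 1, and Nr4a1 at −0.61 without replicate 2.

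The median of the 10 genes was −0.34 without vehicle-treated replicate 3, and 9 of the 10 means remained lower without it. The choroid plexus markers moved with this comparison: 5 of 5 were lower in treated mice without overlap, with a median difference of −2.58. Over all tested genes 3.5% were lower without overlap and 8.47% were without overlap in either direction. The hippocampal excitatory markers were higher in 8 of 8 means, 2 of them without overlap (median 0.46). Pan-neuronal markers were higher in 5 of 5 means, 0 of them without overlap (median 0.14). Of 5 thalamic markers 4 means were higher, 2 of them without overlap (median 0.43), and of 4 striatal markers 3 means were lower (median −0.81). The interferon-stimulated genes had lower means in 8 of 8, with overlap in each (median −1.01). Averaged over these 8, treated replicates 1, 2 and 3 were at 12.1, 10.3 and 12.8, and vehicle-treated CUG300 mice at 12.4 to 12.8. The part of all these markers in the immediate early gene values was not tested.

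**Figure D4:**
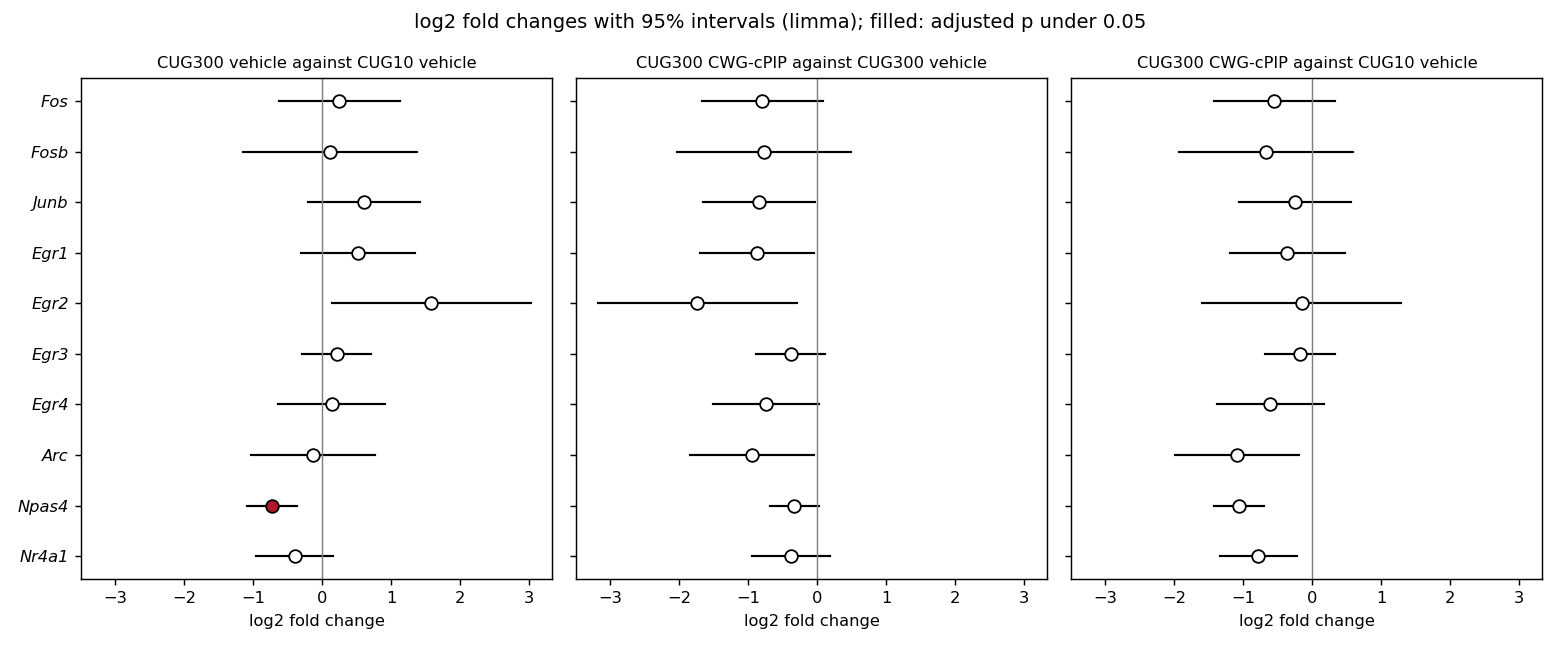
log2 fold change (limma on rlog values) of each gene in the 3 comparisons, with 95% intervals as lines. The filled point, Npas4 in vehicle-treated CUG300 against CUG10 mice at −0.73, is the single call at an adjusted p under 0.05. In both comparisons of CWG-cPIP–treated mice all 10 points lie below 0.

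Against CUG10 mice, CWG-cPIP–treated CUG300 mice had lower means for 10 of 10 genes as well, from −1.09 for Arc to −0.16 for Egr2, with a median of −0.58 against 0.0005 over all tested genes. The 2 comparisons share the treated mice. A lower mean was found for 49.9% of all tested genes. The groups did not overlap for 5 of the 10, all lower (12.4% of tested genes were lower without overlap, 25.8% in either direction). These were Arc, Npas4, Nr4a1, Fosb and Egr4. Limma called 0 genes in this comparison (0%, smallest adjusted p = 0.0879), and 1997 had an unadjusted p under 0.05, 13.4% in either direction and 5.31% lower, with Arc, Npas4 and Nr4a1 among them. Without treated replicate 2 it called 567 genes, Npas4 among them, and without any other single mouse at most 4.

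Npas4 had the smallest p of the 10. Its 3 treated mice, at 5.91, 5.91 and 6.204, lay below the CUG10 mice at 7.20, 7.13 and 6.88, a difference of −1.06 (SE 0.16, 95% interval −1.43 to −0.70, 0.478 times the CUG10 level, unadjusted p = 9.3e-05, limma adjusted p = 0.0970). Without treated replicate 2 the adjusted p was 0.0211 at a difference of −1.02. Arc, at 10.94, 10.77 and 11.34 in treated mice against 12.47, 11.92 and 11.92 in CUG10 mice, differed by −1.09 (95% interval −1.99 to −0.19, adjusted p = 0.296). Nr4a1, at 9.74, 9.71 and 10.07 in treated mice against 11.07, 10.42 and 10.37 in CUG10 mice, differed by −0.78 (95% interval −1.34 to −0.22, adjusted p = 0.246). Fosb and Egr4 differed by −0.67 and −0.61, with intervals that included 0. Egr2, which was high in vehicle-treated CUG300 mice, had nearly the same mean in treated mice as in CUG10 mice, 7.61 ± 1.24 against 7.77 ± 0.30 (SD, n = 3 each), and its difference of −0.16 turned to 0.02 without CUG10 replicate 1 and to 0.46 without treated replicate 2. Its interval of −1.60 to 1.29 does not exclude a difference of more than 2-fold in either direction. Junb, at −0.25, turned to 0.06 without treated replicate 2, and Fos, Egr1 and Egr3 differed by −0.55, −0.36 and −0.18. Without treated replicate 2 these were −0.35, −0.13 and −0.076, and without CUG10 replicate 1 they were −0.27 for Fos, −0.20 for Egr1 and −0.063 for Junb. Without treated replicate 3 Egr1 was at −0.59, Egr2 at −0.78 and Junb at −0.63, and Egr2 was at −0.25 without CUG10 replicate 2.

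Markers of other cells and regions differed between treated and CUG10 mice as well. Over all tested genes 12.4% were lower without overlap and 25.8% were without overlap in either direction. Pan-neuronal markers had lower means in 5 of 5, 4 of them without overlap (median −0.26), whereas 5 of 8 hippocampal excitatory markers had higher means, 3 without overlap (median 0.22). Striatal markers had lower means in 4 of 4 (3 without overlap, median −1.71), oligodendrocyte markers in 4 of 4 (3 without overlap, median −0.67) and choroid plexus markers in 5 of 5 (1 without overlap, median −1.46). Thalamic markers had higher means in 5 of 5 (4 without overlap, median 0.86), and interferon-stimulated genes in 8 of 8, all without overlap (median 2.53). None of these passed the test, and their part in the immediate early gene values was not tested.

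The order of the 3 groups was the same for 7 genes, Fos, Fosb, Junb and the 4 EGR genes: vehicle-treated CUG300 mice had the highest mean and CWG-cPIP–treated mice the lowest. The comparisons share mice of each group, so these orders are not separate results. For Arc, Npas4 and Nr4a1 CUG10 mice came first and treated mice last. Neighbors in this order were apart for 4 genes: Egr2 was higher in every vehicle-treated CUG300 mouse than in every CUG10 mouse, Fosb and Egr4 were lower in every treated mouse than in every CUG10 mouse, and Npas4 was lower in every vehicle-treated CUG300 mouse than in every CUG10 mouse. All other neighbors overlapped. In the F test between all groups Npas4 had an adjusted p of 0.0547, equal to the smallest of any tested gene, which did not pass, and 0 of 14867 genes passed (0%). Without treated replicate 2 or 3 the F test called 1041 or 1483 genes, in either case with 1 of the 10 among them, and without any other single mouse at most 4. At an unadjusted p under 0.05 stood 3499 genes (23.5%) and 4 of the 10: Npas4, Nr4a1, Egr2 and Arc.

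Other genes of the same response were followed by lists written from textbook knowledge. Of 25 other primary response genes, 4 rose in vehicle-treated CUG300 mice against CUG10 mice and 0 fell, with a median difference of 0.56. Over all tested genes 7.37% were called higher and 3.34% lower in this comparison. The highest was Atf3, a stress-induced factor, at 8.50 to 9.77 in vehicle-treated CUG300 mice against 6.10 to 6.52 in CUG10 mice (2.82, adjusted p = 0.0314). Maff, a small MAF factor, rose by 1.70 (adjusted p = 0.0390), and Cebpb, a bZIP factor of the acute phase response, by 1.11 (adjusted p = 0.0363). Jun, the main partner of FOS in AP-1, was at 11.4 to 12.3 in vehicle-treated CUG300 mice against 10.68 to 10.71 in CUG10 mice (1.09, adjusted p = 0.0326), and Fosl2 differed by −0.05 (adjusted p = 0.896). Atf3, Maff, Cebpb and Jun are induced by injury and cytokines as well as by synaptic activity. In the same comparison 8 of 8 interferon-stimulated genes rose, with a median of 3.50, and the astrocyte genes Gfap and Aqp4 (2 of 4 markers, 1.21 and 0.91) and the microglial genes Aif1 and Tmem119 (2 of 5, 1.63 and 0.77) were called higher. Their part in the values of the primary response genes was not tested. Nr4a2 and Nr4a3, the relatives of Nr4a1, differed by −0.85 and −0.41 and did not pass (adjusted p = 0.0522 and 0.0655). These relatives were picked for mention with their values known. The calls of this comparison, 1592 over all genes, were reduced to 0 without CUG10 replicate 1 or 3 or vehicle-treated CUG300 replicate 3, to 2 without CUG10 replicate 2 and to 265 without CWG-cPIP–treated replicate 1, and reached 2490 without vehicle-treated CUG300 replicate 2.

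The counts that follow stand beside 7.37% of all tested genes called higher and 3.34% called lower in vehicle-treated CUG300 against CUG10 mice. Of 19 later genes that activity induces in neurons, 1 rose, Crem, whose inducible product represses CREB targets (0.73, adjusted p = 0.0463), and 0 fell, with a median of 0.11. Bdnf, the neurotrophin, differed by 0.29 and Homer1, a postsynaptic scaffold, by −0.17 (adjusted p = 0.131 and 0.386). Of 15 upstream factors and coactivators, Elk3, a partner of serum response factor, rose by 0.92 and Mef2c, an activity-dependent factor of neurons and microglia, fell by 0.65 (adjusted p = 0.0340 and 0.0390). Srf and Creb1 themselves differed by −0.14 and −0.02 (adjusted p = 0.276 and 0.908). Of 15 genes of the MAPK pathway 0 were called, with Mapk3 at −0.20. Of 12 partners and feedback genes of the encoded proteins 3 rose, Jun again and the AP-1 relatives Batf and Batf3 (1.03 and 0.58, adjusted p = 0.0260 and 0.0443). Nab1 and Nab2, corepressors of the EGR factors, differed by 0.29 and 0.05 (adjusted p = 0.0664 and 0.878). Of 8 heat shock genes 1 rose, the cochaperone Bag3 (0.73, adjusted p = 0.0417), and Hspa1a and Hspa1b differed by 0.42 and 0.48.

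Markers of other cells and regions were counted in the same comparison, in which 10.7% of all tested genes were called. Called higher or lower were 0 of 4 oligodendrocyte markers (median −0.59), 0 of 4 endothelial markers (0.54), 0 of 5 choroid plexus markers (1.19), 0 of 5 thalamic markers (0.69), 0 of 4 striatal markers (−0.91) and 0 of 3 blood markers (0.78).

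In the 2 comparisons with CWG-cPIP–treated mice 0 of all tested genes were called (0%), so the lists could hold no call. Against vehicle-treated CUG300 mice, 20 of 25 means of the other primary response genes were lower (median −0.48), as were 16 of 19 of the later genes (median −0.21), 4 of 15 of the upstream factors (median 0.10) and 6 of 15 of the MAPK genes (median 0.13). Atf3 spread widely among treated mice, between 6.21 and 9.22. Against CUG10 mice the median of the other primary response genes was 0.18, of opposite sign to that of the 10 genes, with 14 of 25 means higher.

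**Figure D5:**
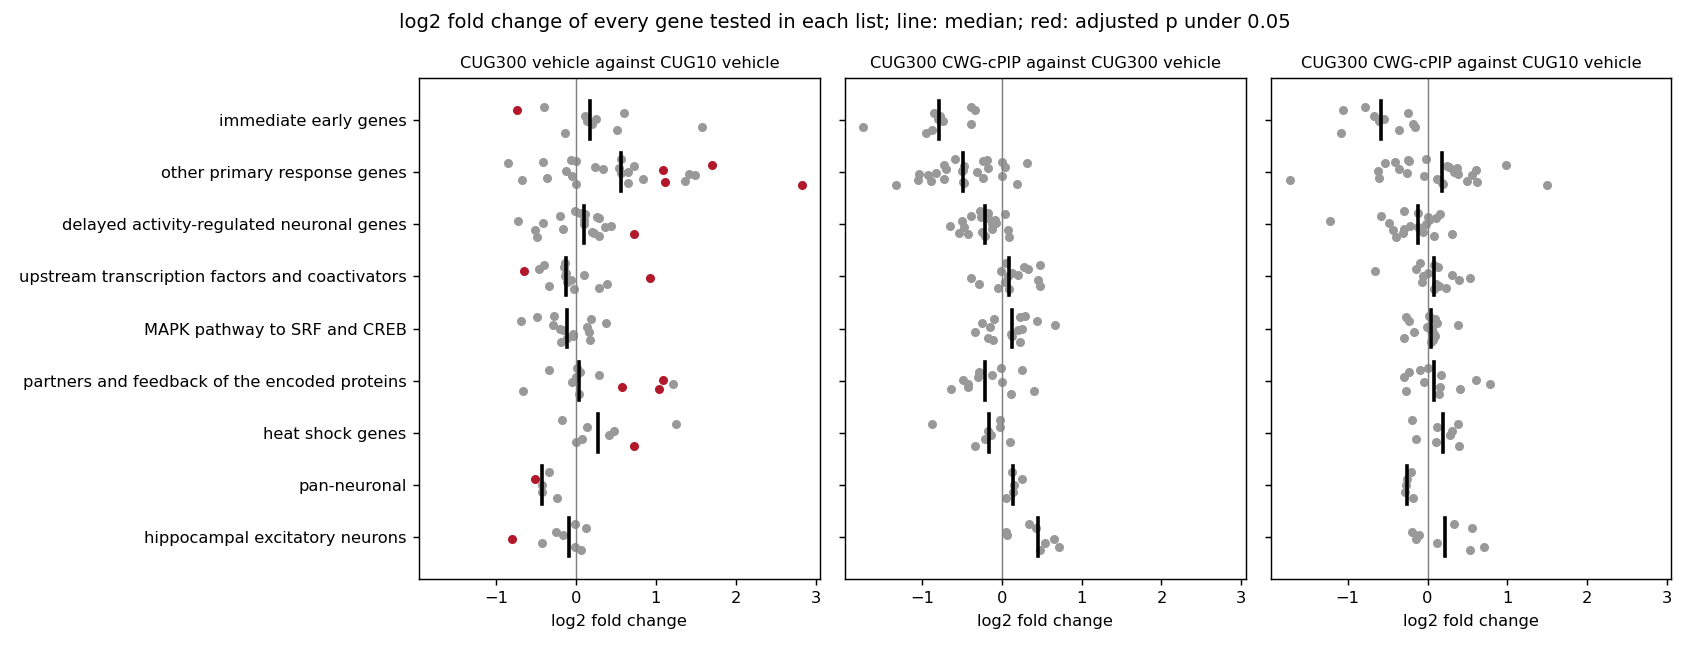
log2 fold change of every tested gene of the 10 immediate early genes and of 8 other lists, in the 3 comparisons, with black lines at the medians and red points for an adjusted p under 0.05. Red points occur only for vehicle-treated CUG300 against CUG10 mice, and the median of the 10 genes is −0.79 in CUG300 mice given CWG-cPIP against those given vehicle.

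The genes whose values followed the 10 most closely over the 9 mice were, by Pearson's r with their mean standardized value, Ext1 (0.98), Plk3 (0.97), Prss23 (0.96), Akt1s1 (0.96), Tmem161a (0.96), Nab2 (0.95), Pbld2 (0.95), Rtfdc1, Met and Klhl40 (0.94 each). Among them Nab2, the EGR corepressor, was at 9.19 to 9.74 in CWG-cPIP–treated mice, 9.54 to 10.1 in vehicle-treated CUG300 mice and 9.66 to 9.69 in CUG10 mice. These 10 were picked from 14867 genes over 9 mice of 3 groups, so high values of r are found by the search itself, and 0 of them were called in any comparison.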

How the data were processed

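Total RNA of 9 hippocampi was sequenced from directional libraries as paired reads of 150 nt. Per the methods and the submitters' processing notes, reads went through Trim Galore 0.6.6, STAR 2.7.9a and RSEM 1.3.3 on GRCm38/mm10. The authors deposited rlog values, on the log2 scale, made with DESeq2 1.36.0. The rlog options, the annotation and whether counting used strand are not given in the sources used here. Without counts the depth is unknown, and no count model was run.

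Each mouse had values for 24411 genes, 5175 of them at 0 throughout. Testing used limma 3.58.1 (R 4.3.3) on the 14867 genes whose mean reached log2(10), with a mean for each group, a variance shared by all 9 mice and following expression. The prior had 3.03 degrees of freedom. Tests were two-sided, with p-values adjusted after Benjamini and Hochberg over all tested genes of a comparison, and calls were made below an adjusted p of 0.05. Mice are biological replicates, 3 per group. Symbols turned into dates by a spreadsheet (23 tested) are not named.

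The 10 genes, the 18 other lists and the naming rule were chosen with earlier results of these data known. The rule named the 10 genes always, the first 2 genes written of each list and its called genes (at most 3), and the 10 genes most like the members by Pearson's r. For lists of cell types and regions only counts, medians and called genes are given. A few values that this rule covers, with the neocortical list, are not reported here. Exon lengths come from the GENCODE annotation of GRCm38, and promoters from RefSeq GRCm38.p6, matched by symbol.

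In simulated data for vehicle-treated CUG300 against CUG10 mice, the test recovered 12 of 67 genes given a log2 change of 0.5. It recovered 42 of 67 given 1 and 62 of 66 given 2, and it called 4 genes that had been left unchanged. The simulation ran over all tested genes, whose median SD within groups was 0.183, against 0.535 for the 10 immediate early genes. These counts can therefore overstate the recovery of changes in the 10 genes, for which it was not tested. The fits were repeated after centering on medians or quantile scaling, with the filter removed or raised to log2(100), with limma's robust form or no trend, at an adjusted p below 0.01, on pairs of groups alone, with the replicate number blocked, and with single mice left out.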

Additional observations from a re-analysis of the deposited data

How the results depend on the processing

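Of the 10 genes, 1 was called in vehicle-treated CUG300 against CUG10 mice (Npas4), and 0 were with a mean of at least log2(100), under which Npas4 was not tested, and 0 at an adjusted p under 0.01, where the count over all genes was 0 in place of 1592. Median centering called 170 genes in the F test, 1 of them among the 10. A fit of only the groups compared called 3 genes for CWG-cPIP compared with vehicle in CUG300 mice and 14 for CWG-cPIP–treated CUG300 compared with CUG10 mice, in each case none of the 10. Without each mouse in turn, vehicle-treated CUG300 against CUG10 mice gave 0 to 2490 genes called and 0 to 1 of the 10, and differences of −0.16 to 0.53 for Fos, −0.68 to 0.52 for Fosb, −0.077 to 0.40 for Egr3, −0.32 to 0.45 for Egr4 and −0.67 to 0.18 for Arc. CWG-cPIP compared with vehicle in CUG300 mice gave 0 to 3 genes and −1.19 to 0.011 for Fosb. CWG-cPIP–treated CUG300 against CUG10 mice gave 0 to 567 genes, 0 to 1 of the 10, −0.78 to 0.46 for Egr2 and −0.63 to 0.063 for Junb. The F test gave 0 to 1483 genes and 0 to 1 of the 10. Groups left with 2 mice rest on the shared variance, and the cause of these shifts was not tested. The median of the 10 genes moved by less than 0.50, the SD between mice of its deviations, in every alternative that could give it. That SD comes from the same mice, so a fit without 1 mouse could hardly move further, and stability does not follow. Without single mice the median was between −0.24 and 0.47, −1.09 and −0.34, and −0.80 and −0.40 in the 3 comparisons in the order of the text. In vehicle-treated CUG300 against CUG10 mice its sign changed, from 0.17 with all mice to −0.24 without vehicle-treated CUG300 replicate 3.

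Correlations of deviations from the group mean were −0.50 to 0.41 between same-numbered mice of 2 groups and −0.52 to 0.46 between differently numbered mice. Between the 2 CUG300 groups, same-numbered mice gave −0.18, 0.40 and 0.41 for replicates 1, 2 and 3. With 3 mice per group these values do not settle whether the numbers pair the mice. With the number as a block, 1512 genes were called in vehicle-treated CUG300 against CUG10 mice, and Npas4 had an adjusted p of 0.0410. The depth behind these values is unknown, 3 mice per group limit their precision, and the self-test found few changes of 0.5 at this size.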
